A study of Oryza sativa with 18 samples.

Results

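The 6 libraries described here, of 18 in the series, compare roots of rice (Oryza sativa cv. Nipponbare) taken 1 day after 2,4-D with mock roots of the same day. They were picked by their labels alone, 3 being 2,4-D roots at 1 day post-treatment (1 dpt) and 3 mock roots at 1 dpt. Seedlings that had grown for 7 days on low-N Fahraeus medium were soaked whole for 1 h in 50 µM 2,4-D, or in the same solution without 2,4-D for mock, and went back to low-N medium until the roots were taken. The labels call the 3 libraries of a group biological replicates, and how many plants gave each library is not given in the sources used here. Neither group carried nodule-like structures (NLSs) at 1 dpt by the labels, while the 2,4-D roots sequenced at 7 and 14 dpt were only those that did. The comparison asks which transcripts differ on the day after the auxin, ahead of those later stages.

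2,4-D is a synthetic auxin. In plant cells auxin is bound by TIR1/AFB receptors, which then send the Aux/IAA repressors for degradation, and this frees the auxin response factors (ARFs) to switch on their targets. Among the fast targets are the Aux/IAA genes themselves, the GH3 enzymes that join auxin to amino acids, and LOB-domain factors that act in the founding of lateral and crown roots. Auxin also acts on root cell expansion, on vascular differentiation and on the synthesis of ethylene and the breakdown of gibberellin.

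Short primer pairs are the only sequences of these genes at hand. They are shown for 4 genes on which the results turn and which the study also examined by RT-PCR, and they mark the gene copy that was examined. All are written 5′ to 3′ in lower case, with no part marked.
Auxin efflux carrier LOC_Os01g51780.1, chromosome 1, forward: aggcagctctacctcaagga
Auxin efflux carrier LOC_Os01g51780.1, chromosome 1, reverse: aaagtagtaagccagcgcca
GRAS family transcription factor LOC_Os06g40780.1, chromosome 6, forward: caggtggaggtgatgatagattg
GRAS family transcription factor LOC_Os06g40780.1, chromosome 6, reverse: ttgatgatggcctccagataac
Ethylene-forming enzyme LOC_Os09g27820.1, chromosome 9, forward: ccggtcatcaacatggagtt
Ethylene-forming enzyme LOC_Os09g27820.1, chromosome 9, reverse: ccagcttctccgccttattc
Plastocyanin-like domain containing protein LOC_Os08g37660.1, chromosome 8, forward: acgacacgcttgtattcagata
Plastocyanin-like domain containing protein LOC_Os08g37660.1, chromosome 8, reverse: ggctggcgtggagtaag
Values for these genes stand with their groups in the text that follows.

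The libraries held 12189984 to 13402004 counts in 2,4-D roots and 9416952 to 14649684 counts in mock roots. A floor of 3 counts lay between 0.22 and 0.333 CPM, counting error only. Log2 CPM over the tested transcripts correlated at 0.904 to 0.977 among 2,4-D libraries, at 0.88 to 0.975 among mock libraries and at 0.622 to 0.818 between the groups. The third library of either group stood apart from the other two. On the first principal component, which held 74% of the variance, the 2,4-D libraries scored 66, 82.7 and 43 and the mock libraries -74.8, -86.2 and -30.7. On the second, with 15.8% of the variance, they scored -13.6, -12.9 and 53.1, and 5.84, 15.8 and -48.3 in mock roots. On the first component mock replicate 3 was therefore the mock library nearest to 2,4-D roots. Likewise 2,4-D replicate 3 was the 2,4-D library nearest to mock roots. The part of each library in the results was measured by leaving it out. Aquaporins known from roots were detected in all 6 libraries, with summed levels of 1010, 1180 and 386 CPM in 2,4-D roots and 1680, 2000 and 2520 CPM in mock roots, and no marker of shoot tissue was tested.

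At 1 dpt 707 transcripts were higher and 1167 lower in 2,4-D roots, of 13477 tested, which is 13.9% of those tested, 5.25% higher and 8.66% lower. Calls here and below required that the adjusted p (Benjamini-Hochberg, quasi-likelihood test of edgeR) was under 0.05 and that the log2 fold change reached 1 in either direction. The changes were large, since 318 of the higher and 546 of the lower transcripts moved by a log2 fold change of 2 or more, and 46 and 70 by 4 or more. The called higher transcripts together took 6.5, 6.9 and 7.72% of the normalised counts in 2,4-D roots, against 1.67, 1.54 and 2% in mock roots. The called lower transcripts took 3.99, 3.31 and 4.16% in 2,4-D roots and 13.6, 13.7 and 10.3% in mock roots. The 2,4-D and mock levels did not overlap in any called transcript, and they did not overlap in 39.6% of all tested transcripts. The median log2 fold change over all tested transcripts was 0.00468.

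The counts moved with single libraries. With mock replicate 3 left out, 1207 transcripts were called higher and 1398 lower. Leaving out mock replicate 1 gave 372 and 571, mock replicate 2 gave 412 and 625, 2,4-D replicate 1 gave 429 and 715, and 2,4-D replicate 2 gave 405 and 660. In each of the 6 fits that left out a library 297 higher and 494 lower transcripts kept their call. Named genes whose call was lost without a library are marked as such below, and for all others that were called it held in every such fit in which they were tested.

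**Figure D1:**
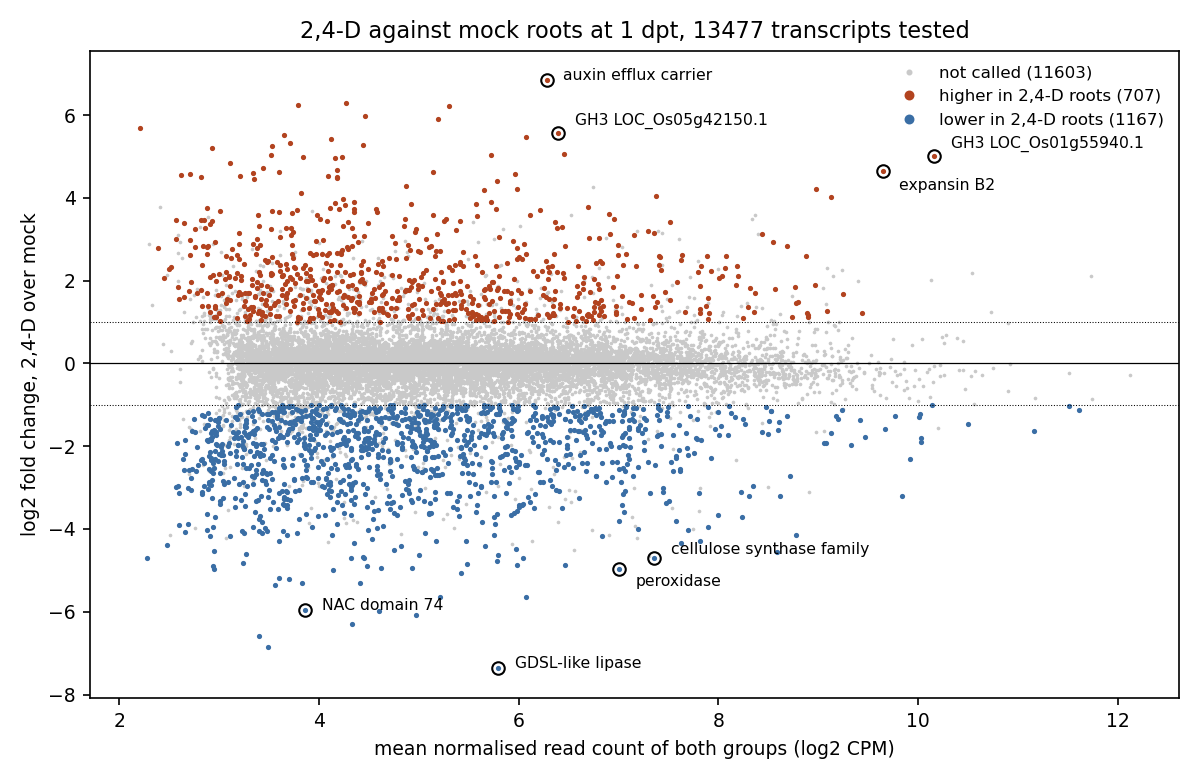
Log2 fold change of 2,4-D over mock roots at 1 dpt (y axis) against the mean normalised read count of both groups (x axis, log2 CPM), with a point for each of 13477 transcripts. Red points are the 707 called higher and blue points the 1167 called lower, dotted lines mark a log2 fold change of 1 in either direction, and the circled genes reach from 6.84 for the auxin efflux carrier to -7.37 for the GDSL-like lipase.

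Gene names were taken from the tables of the study, which were drawn from its 7 dpt comparison, and many are the names of the closest protein of another species. Transcripts in those tables were chosen for a difference at 7 dpt, so a list made from them is not independent evidence of its direction at 1 dpt. Of 1720 such transcripts tested at 1 dpt, 367 were higher (21.3%) and 556 lower (32.3%) in 2,4-D roots, 53.7% in all. Those counts became 228 and 340 without mock replicate 1, and the higher ones 238 without mock replicate 2 and 241 without 2,4-D replicate 2. The counts of each list below can be read against these shares as well as those of all transcripts. The table shares join transcripts higher and lower at 7 dpt, so they are low for a list that went a single way there. A further 951 called transcripts, 340 higher and 611 lower, are in none of the tables. The most changed of them were LOC_Os03g48770.1 at a log2 fold change of 6.28 and LOC_Os04g59200.1 at 6.25, and LOC_Os06g28670.1 at -6.86 and LOC_Os03g51980.1 at -6.58. The call of LOC_Os03g48770.1 was lost without mock replicate 1 (adjusted p = 0.0619) and without mock replicate 2 (adjusted p = 0.0582, edgeR).

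Listed genes of auxin conjugation and of the auxin response rose together. All 5 GH3 enzymes tested were higher in 2,4-D roots (median log2 fold change 2.64), as were all 5 Aux/IAA and ARF genes (median 1.82), and none of these 10 was lower. GH3 LOC_Os05g42150.1 had 145, 197 and 153 CPM in 2,4-D roots and 3.81, 3.56 and 3 CPM in mock roots, a log2 fold change of 5.57 ± 0.20 (SE, n = 3 each, edgeR adjusted p = 0.00113). All 3 2,4-D libraries lay far above the mock libraries, and this was the clearest of these 5 genes. GH3 LOC_Os01g55940.1 had 1820, 2239 and 2612 CPM in 2,4-D roots, against 63.7, 63.4 and 80.8 CPM in mock roots (5.004 ± 0.24). GH3 LOC_Os07g40290.1 rose by 2.64 ± 0.25 on the log2 scale and LOC_Os11g32510.1 by 1.83 ± 0.28. The fifth, LOC_Os11g32520.1, rose by 1.77 ± 0.32, and this call was lost without mock replicate 1 (adjusted p = 0.0697), 2,4-D replicate 1 (0.0553) or 2,4-D replicate 2 (0.0574).

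Of the Aux/IAA genes, the transcript described as indole-3-acetic acid inducible 31, LOC_Os06g07040.1, had 516, 823 and 1539 CPM in 2,4-D roots and 59.9, 51.1 and 44.6 CPM in mock roots (log2 fold change 4.21 ± 0.46, n = 3 each, edgeR adjusted p = 0.00375). The spread among 2,4-D libraries was wide, but the lowest of them was above every mock library. Indoleacetic acid-induced protein 8, LOC_Os05g48590.1, reached 400.1, 534 and 562 CPM in 2,4-D roots and 128, 134 and 162 CPM in mock roots (1.82 ± 0.19). Of the ARFs, ARF 19 (LOC_Os06g48950.1) rose by 1.58 ± 0.15 and ARF 16 (LOC_Os04g43910.1) by 1.33 ± 0.17. LOC_Os05g48870.1, a B3 factor described as ARF 15 and as AUX/IAA-related, rose by 2.07 ± 0.14. The 5 genes of this list were called whichever library was left out.

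The gene with the largest rise among all named transcripts was the auxin efflux carrier LOC_Os01g51780.1, of a family that carries auxin out of the cytosol. Its levels were 102, 219 and 142 CPM in 2,4-D roots and 1.68, 1.26 and 0.999 CPM in mock roots, a log2 fold change of 6.84 ± 0.41 (n = 3 each, edgeR adjusted p = 0.00196). No mock library came near any 2,4-D library. Of the 13 auxin-named genes outside the GH3, Aux/IAA and ARF lists it was the 1 called higher, while 7 were lower and 5 not called (median log2 fold change -1.39). The 7 lower genes became 4 without mock replicate 1 or 2, and the higher ones numbered 3 when mock replicate 3 was left out and 2 for 2,4-D replicate 1.

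The lower genes are of several kinds. AIR12 (LOC_Os08g24790.1), a membrane protein named from auxin-treated Arabidopsis root cultures, had 17.2, 36.1 and 46.4 CPM in 2,4-D roots and 380, 257 and 356 CPM in mock roots (log2 fold change -3.32 ± 0.40, n = 3 each, edgeR adjusted p = 0.00494). YUCCA 3 (LOC_Os04g03980.1), an enzyme of auxin synthesis, had 28.3, 12.6 and 25.5 CPM in 2,4-D roots and 58.8, 71.4 and 43.3 CPM in mock roots (-1.39 ± 0.35). The groups did not overlap, but this call depended on the full set of libraries and was lost when any 1 of 5 was left out (adjusted p 0.0667 to 0.138), all but mock replicate 3. The influx carrier described as like AUXIN RESISTANT 2 or 3 (LOC_Os11g06820.1) fell by 1.93 ± 0.36 and lost its call without mock replicate 1 (adjusted p = 0.0603) or mock replicate 2 (0.0627). A further gene described as like AUXIN RESISTANT 2, LOC_Os03g14080.1, was not called (0.62 ± 0.47, adjusted p = 0.407), and its groups overlapped. An IAA carboxylmethyltransferase (LOC_Os04g57090.1), which turns auxin into its methyl ester, was lower at -2.92 ± 0.63. That call was lost without 2,4-D replicate 1, 2 or 3 (adjusted p 0.0872, 0.0887 and 0.052), and the gene was not tested without mock replicate 1 or 2. Another copy of that enzyme, LOC_Os04g56950.1, was not called at a log2 fold change of 0.88 ± 0.27 (adjusted p = 0.07). The other 3 lower genes are called auxin-responsive family proteins (LOC_Os03g09850.1, LOC_Os08g41280.1 and LOC_Os09g32470.1), with log2 fold changes of -1.89, -1.62 and -1.67. A second efflux carrier, LOC_Os09g32770.1, had 47.4, 33.5 and 30 CPM in 2,4-D roots and 30.5, 26.5 and 57.4 CPM in mock roots, and the groups overlapped. Its log2 fold change was -0.04, with a 95% interval of -0.88 to 0.79, and in other fits it lay on the other side of 0.

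**Figure D2:**
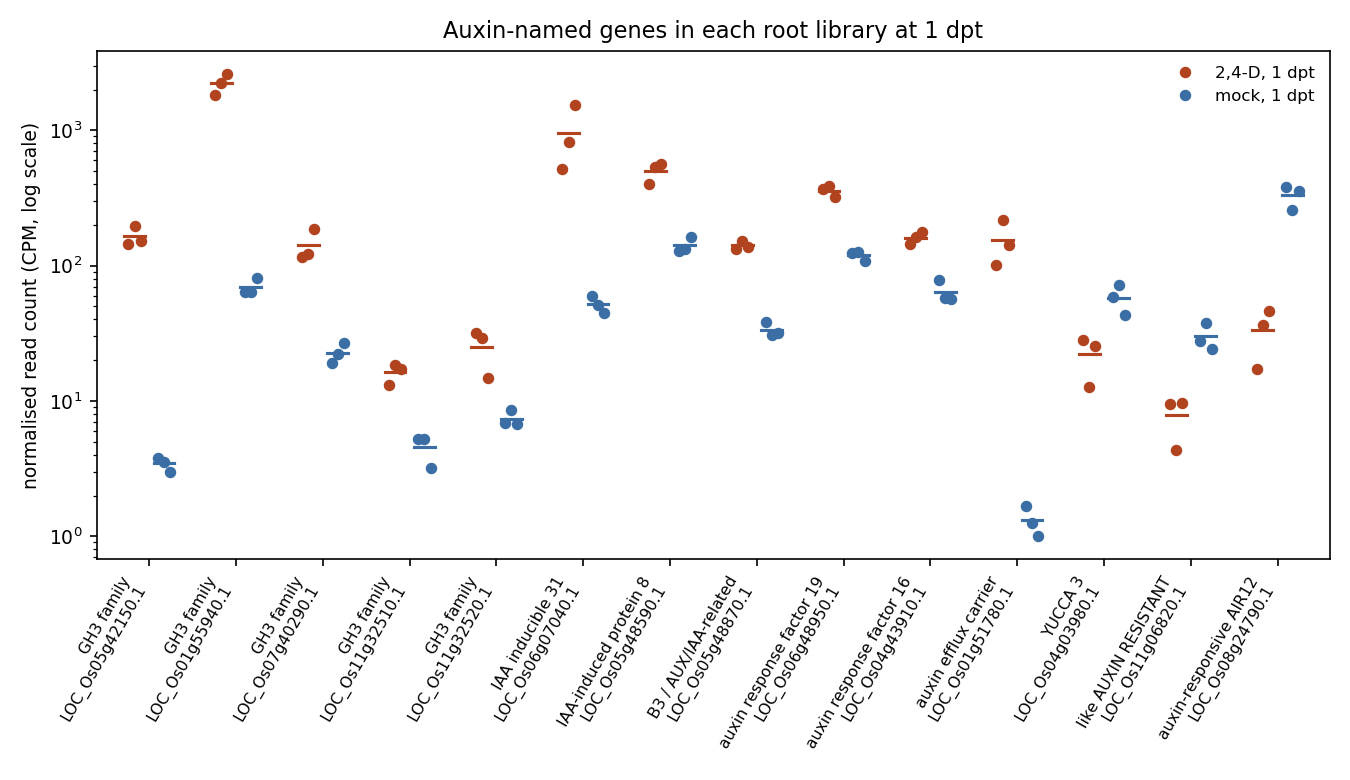
Normalised read count (CPM, log scale) of 14 auxin-named genes, all called at 1 dpt, in each of the 3 2,4-D libraries (red) and 3 mock libraries (blue), with the mean of each group as a bar. The first 11 genes lie higher in 2,4-D roots and the last 3 lower, with no overlap of the groups in any of them, and CPM is not per length, so that genes cannot be ranked by height.

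Transcription factors of root primordia and organ boundaries rose at 1 dpt. Of 7 LOB-domain and lateral root primordium factors tested 6 were higher and none was lower in 2,4-D roots (median log2 fold change 1.98). The LOB-domain factor LOC_Os10g07510.1 had 28.1, 33.5 and 38.9 CPM in 2,4-D roots and 2.9, 2.67 and 1.11 CPM in mock roots (3.88 ± 0.37, n = 3 each, edgeR adjusted p = 0.00299). LOB-domain 16 (LOC_Os02g57490.1), named after an Arabidopsis factor of lateral root initiation, rose by 3.73 ± 0.39, and the LOB-domain factor LOC_Os08g44940.1 by 3.45 ± 0.34. In each of these 3 genes the lowest 2,4-D library was several times above the highest mock library. The lateral root primordium protein LOC_Os09g36160.1 rose by 1.98 ± 0.39, a call lost without mock replicate 1 (adjusted p = 0.0562) or mock replicate 2 (0.0718).

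Of 14 AP2/ERF factors 8 were higher and 2 lower (median 1.45), with 4 higher without mock replicate 1, mock replicate 2 or 2,4-D replicate 2 and 5 without 2,4-D replicate 1. Ethylene-responsive element binding factor 15 (LOC_Os03g64260.1) had 20.3, 36 and 56.7 CPM in 2,4-D roots and 2.37, 2 and 4.77 CPM in mock roots (3.65 ± 0.52, edgeR adjusted p = 0.00767). AINTEGUMENTA-like 5 (LOC_Os06g44750.1), related to the PLETHORA factors that keep root meristems, had 61, 49.1 and 74.5 CPM in 2,4-D roots and 13.8, 9.05 and 7.66 CPM in mock roots (2.59 ± 0.28). In both genes the lowest 2,4-D library lay above the highest mock library. On the same list PLETHORA2 itself (LOC_Os02g40070.1) was not called at 1 dpt, and BABY BOOM (LOC_Os04g42570.1) was not tested there. A further member described as putative BABY BOOM, LOC_Os11g19060.1, was called higher at 1 dpt, and its call without single libraries is not given here. Of 11 homeobox factors 6 were higher, or 3 without mock replicate 1, and 1 lower (median 1.69). Among the higher ones were homeobox-leucine zipper protein 3 LOC_Os04g46350.1 (3.21 ± 0.25) and homeobox protein 21 LOC_Os03g10210.1 (2.11 ± 0.22). LOC_Os07g48560.1, described as WUSCHEL related homeobox 11, was also called higher, and its call without single libraries is not given here. Another transcript of that description, LOC_Os03g20910.2, had 17.2, 23.5 and 46.8 CPM in 2,4-D roots and 6.18, 5.34 and 5.33 CPM in mock roots (2.37 ± 0.40). The groups did not overlap, yet the call was lost without mock replicate 1 (adjusted p = 0.0564) or mock replicate 2 (0.0579). The GRAS factor LOC_Os06g40780.1 had 25.6, 27.8 and 26.9 CPM in 2,4-D roots, against 2.14, 1.56 and 0.777 CPM in mock roots (4.13 ± 0.34).

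Other families gave other counts. Of 13 NAC factors 3 were higher and 6 lower, of 21 MYB factors 3 were higher and 9 lower, and of 12 bHLH factors 2 were lower and none was higher. The 3 higher MYB factors became 5 without mock replicate 3 and 1 when any other library was left out. Of 8 WRKY factors 2 were higher, a count of 4 when mock replicate 3 was left out, 1 for 2,4-D replicate 3 and 0 for any of the other 4 libraries. The NAC factor LOC_Os04g43560.1, described as NAC domain containing protein 74, had 0.441, 0.234 and 0.683 CPM in 2,4-D roots and 38.5, 32.2 and 15.1 CPM in mock roots (-5.97 ± 0.54, edgeR adjusted p = 0.00273). It was close to the floor of the counts in all 3 2,4-D libraries. A further NAC 74 transcript, LOC_Os10g33760.1, was lower by -4.63 ± 0.44. NAC domain containing protein 102 (LOC_Os01g60020.1) rose by 3.56 ± 0.67, a call lost without mock replicate 1 (adjusted p = 0.0603) or mock replicate 2 (0.0632). Over the 89 transcription factors of these lists 29 were higher and 20 lower. The higher factors were 16 when mock replicate 1 or mock replicate 2 was left out, 19 for 2,4-D replicate 1 and 17 for 2,4-D replicate 2.

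Genes of ethylene synthesis and of gibberellin breakdown were higher in 2,4-D roots, and cytokinin genes lower. Both ethylene-forming enzymes, which make ethylene from ACC, rose. LOC_Os09g27820.1 had 23.3, 51.2 and 27.9 CPM in 2,4-D roots and 3.66, 1.93 and 2 CPM in mock roots (3.74 ± 0.44, n = 3 each, edgeR adjusted p = 0.00443). LOC_Os09g27750.1 had 94.7, 132 and 125 CPM in 2,4-D roots and 19.6, 11.3 and 16.8 CPM in mock roots (2.88 ± 0.25). Neither gene overlapped between the groups, and both calls held whichever library was left out.

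Gibberellin 2-oxidases inactivate gibberellins and gibberellin 20-oxidases make them. Gibberellin 2-oxidase 1 (LOC_Os05g48700.1) had 98.6, 121 and 139 CPM in 2,4-D roots and 7.63, 4.01 and 3.11 CPM in mock roots (4.59 ± 0.38, edgeR adjusted p = 0.00261). Gibberellin 2-oxidase 6 (LOC_Os05g06670.1) had 38.2, 31.8 and 32.8 CPM in 2,4-D roots, against 1.75, 3.04 and 5.66 CPM in mock roots (3.32 ± 0.42). Another gene described as gibberellin 2-oxidase, LOC_Os01g55240.1, was not called (0.38 ± 0.30, adjusted p = 0.427). Gibberellin 20 oxidase 2 (LOC_Os03g63970.1) had 22.3, 31 and 13.2 CPM in 2,4-D roots and 77.7, 67.9 and 56.4 CPM in mock roots (-1.60 ± 0.32). Its groups did not overlap, and its call was lost without mock replicate 1, mock replicate 2 or 2,4-D replicate 1 (adjusted p 0.0814, 0.0701 and 0.0809).

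Of 7 cytokinin genes 5 were lower and none was higher (median log2 fold change -1.40). The receptor kinase with a CHASE domain, LOC_Os03g50860.1, had 41.2, 39.6 and 48.7 CPM in 2,4-D roots and 121, 125 and 95.4 CPM in mock roots (-1.40 ± 0.16, edgeR adjusted p = 0.00401). Response regulator 3 (LOC_Os02g35180.1), of a class that cytokinin induces in Arabidopsis, was lower by -1.999 ± 0.25. Response regulators 6 (LOC_Os04g57720.1) and 9 (LOC_Os12g04500.1) were lower by -1.63 ± 0.40 and -1.49 ± 0.28, but the call of response regulator 6 was lost when any 1 of 5 libraries was left out, all but mock replicate 3 (adjusted p 0.0534 to 0.131). That of response regulator 9 was lost without replicate 1 or 2 of either group (adjusted p 0.0708 to 0.0788). The count of 5 lower cytokinin genes thus dropped to 2 when any 1 of those 4 libraries was left out, and to 3 for 2,4-D replicate 3. Of 7 jasmonate genes 3 were higher, all described as jasmonate-zim-domain protein 1, a repressor of jasmonate responses. Of these LOC_Os03g08320.1 rose by 2.12 ± 0.26 and LOC_Os10g25290.1 by 1.92 ± 0.30. The third, LOC_Os09g26780.1, rose by 1.54 ± 0.40 and was lost without mock replicate 2 or any 2,4-D library (adjusted p 0.0803 to 0.143). Brassinosteroid-6-oxidase 2 (LOC_Os03g40540.1), of brassinosteroid synthesis, rose by 1.16 ± 0.13.

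Cell wall genes were mostly lower in 2,4-D roots. Of 90 tested genes on the 6 cell wall lists 12 were higher and 55 lower, with a median log2 fold change of -1.76. Of 11 xyloglucan and cellulose enzymes 10 were lower and none was higher (median -3.20). Cellulose synthase A4 (LOC_Os10g32980.1), a subunit that makes secondary wall cellulose, had 19, 13.5 and 23.7 CPM in 2,4-D roots and 433, 412 and 286 CPM in mock roots (-4.33 ± 0.30, n = 3 each, edgeR adjusted p = 0.002). Every mock library was far above every 2,4-D library. Cellulose synthase family genes LOC_Os09g25490.1 and LOC_Os01g54620.1 were lower by -4.71 ± 0.26 and -3.94 ± 0.27. The COBRA-like protein LOC_Os03g30250.1, of a family that acts on cellulose deposition, was lower by -4.87 ± 0.50.

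Genes of lignin followed the same direction. Of 16 laccases and dirigent proteins 14 were lower and 2 higher (median -2.51), the 2 becoming 0 without mock replicate 1 or 2 and 1 without 2,4-D replicate 1 or 2. Laccase 17, named after an Arabidopsis enzyme that polymerises lignin, was measured as several loci. LOC_Os01g62490.1 had 4.33, 3.35 and 6.06 CPM in 2,4-D roots and 113, 103.4 and 74.5 CPM in mock roots (-4.40 ± 0.30, edgeR adjusted p = 0.002), and LOC_Os05g38390.1 was lower by -4.06 ± 0.36. The dirigent-like protein LOC_Os07g44280.1 was lower by -4.70 ± 0.49. Of 34 peroxidases 16 were lower and 6 higher, and of 10 lignin pathway enzymes 6 and 1, the 6 becoming 3 without mock replicate 1 or 2,4-D replicate 2. Peroxidase LOC_Os05g04500.1 had 8.15, 6.16 and 9.48 CPM in 2,4-D roots and 209, 309.5 and 228 CPM in mock roots (-4.97 ± 0.26). No library of either group came near the other group.

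A pair of transcripts described as PHE ammonia lyase 1, the entry enzyme of the phenylpropanoid pathway, moved in opposite directions. LOC_Os04g43760.1 had 55.1, 44.3 and 42.8 CPM in 2,4-D roots and 172, 164 and 137 CPM in mock roots (-1.73 ± 0.16, edgeR adjusted p = 0.00281). LOC_Os04g43800.1 had 61.5, 66.4 and 42.4 CPM in 2,4-D roots and 4.73, 2.97 and 10.4 CPM in mock roots (3.25 ± 0.49, adjusted p = 0.00889). The split between such related copies is uncertain, since the counting of reads they share is not given in the sources used here. Expansins, which loosen primary walls, also went both ways, with 3 of 11 higher and 3 lower, the lower ones 1 without mock replicate 1, mock replicate 2 or 2,4-D replicate 3. Expansin B2 LOC_Os04g46630.1 had 1099, 1154 and 2372 CPM in 2,4-D roots and 76.3, 69.5 and 38.9 CPM in mock roots (4.65 ± 0.47). Expansin A17 (LOC_Os05g19600.1) was lower by -2.40 ± 0.38.

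Factors that switch on secondary walls in Arabidopsis were among the lower ones. NAC domain containing protein 73 (LOC_Os05g48850.1) had 5.07, 3.04 and 2.82 CPM in 2,4-D roots and 39.9, 37.7 and 31.2 CPM in mock roots (-3.31 ± 0.28, edgeR adjusted p = 0.00261). Myb domain protein 103 (LOC_Os08g05520.1) had 8.52, 5.46 and 5.04 CPM in 2,4-D roots and 39.6, 35 and 30.9 CPM in mock roots (-2.47 ± 0.25). Neither overlapped between the groups.

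Markers of xylem moved with the wall genes. All 4 tested xylem markers were lower (median log2 fold change -3.24), and cellulose synthase A4 is on this list as well as on that of the wall enzymes. The 5 listed xylem markers summed to 85.5, 50.6 and 84.1 CPM in 2,4-D roots and 836, 696 and 495 CPM in mock roots, with none at 0 in all libraries. Xylem cysteine peptidase 1 (LOC_Os02g48450.1), an enzyme of vessel cell death, had 3.75, 3.74 and 2.99 CPM in 2,4-D roots and 129, 37.9 and 37.7 CPM in mock roots (-4.29 ± 0.60, edgeR adjusted p = 0.00739). Mock replicate 1 was far above the other mock libraries in this gene. The 4 phloem markers summed to 418, 439 and 436 CPM in 2,4-D roots and 164, 157 and 188 CPM in mock roots, with 1 called higher. In whole roots fewer cells of a type and less RNA per cell cannot be told apart, and the part of xylem content in the wall result was not tested.

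Without single libraries the 55 lower wall genes were 28 (mock replicate 1), 32 (mock replicate 2), 38 (2,4-D replicate 1), 33 (2,4-D replicate 2), 47 (2,4-D replicate 3) and 57 (mock replicate 3). The 16 lower peroxidases among them became 4, 5, 6 and 10 without the first 4 of these libraries. The Casparian strip-type proteins (UPF0497), of a family that lays down the endodermal barrier, were lower in 6 of 8 members and higher in none. Their count was 0 when 2,4-D replicate 2 was left out, 3 for either of the other 2,4-D libraries, and 2, 1 and 5 for mock replicates 1, 2 and 3. Their summed level was 440, 300 and 317 CPM in 2,4-D roots and 870, 723 and 799 CPM in mock roots.

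**Figure D3:**
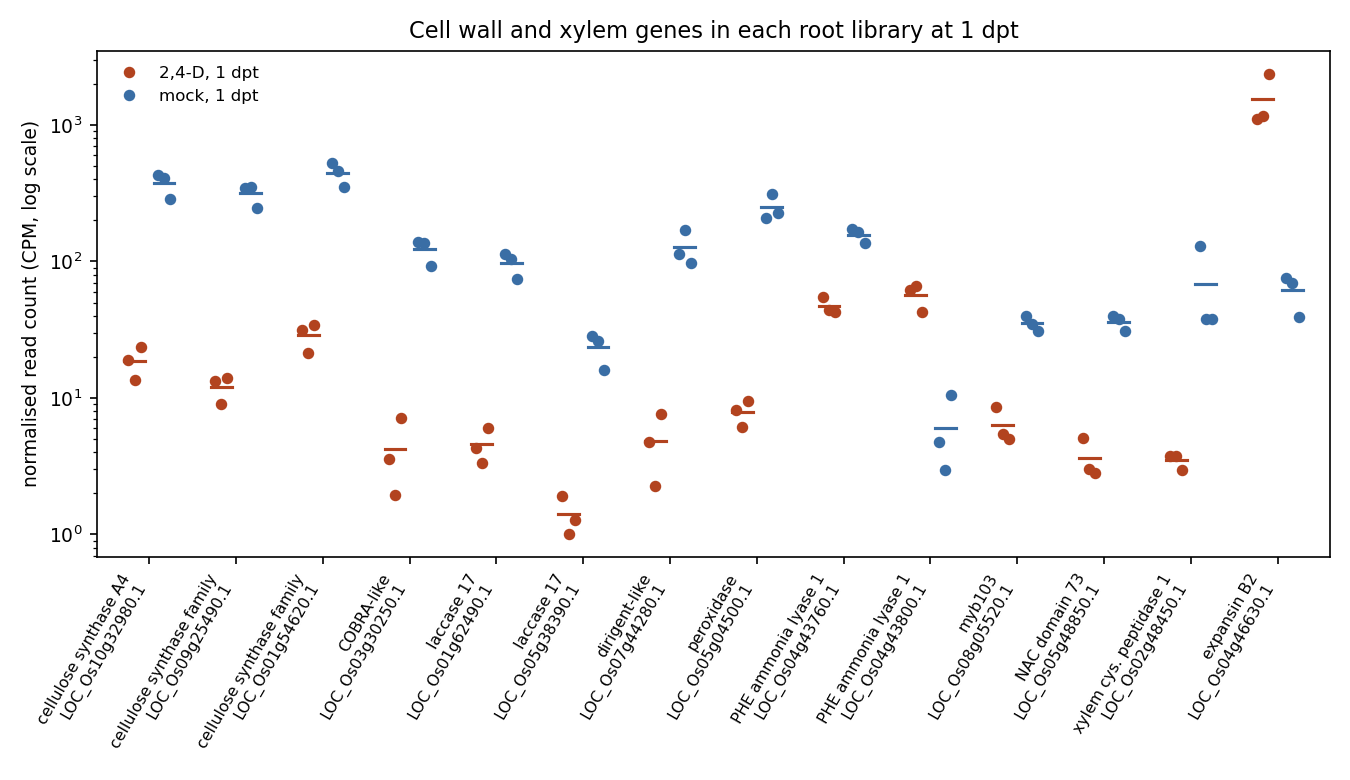
Normalised read count (CPM, log scale) of 14 cell wall, xylem and secondary wall regulator genes in each of the 3 2,4-D libraries (red) and 3 mock libraries (blue), with group means as bars. All lie lower in 2,4-D roots except PHE ammonia lyase 1 LOC_Os04g43800.1 and expansin B2 LOC_Os04g46630.1, which lie higher. Cellulose synthase A4 stands at 13.5 to 23.7 CPM in 2,4-D roots and 286 to 433 CPM in mock roots.

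Over the 4 lists of transport genes 24 of 49 were lower, 3 higher and 22 not called in 2,4-D roots (median log2 fold change -1.16), and 18 of 48 were lower without mock replicate 1. Of 10 aquaporins 6 were lower and none was higher. Tonoplast intrinsic protein 2;3 (LOC_Os02g44080.1), a water channel of the vacuole, had 55.4, 26.4 and 58 CPM in 2,4-D roots and 687, 1120 and 687 CPM in mock roots (-4.16 ± 0.41, n = 3 each, edgeR adjusted p = 0.00321). Plasma membrane intrinsic protein 2;8 (LOC_Os04g16450.1) was lower by -3.08 ± 0.28, and the aquaporin NIP2-2 (LOC_Os06g12310.1), of the group that carries silicon in rice, by -3.29 ± 0.45. Of 15 nitrate, ammonium and peptide transporters 9 were lower and 1 higher. Peptide transporter PTR2 (LOC_Os05g27304.1) had 2.64, 1.33 and 3.5 CPM in 2,4-D roots and 92.3, 89.4 and 67.8 CPM in mock roots (-5.06 ± 0.37, adjusted p = 0.00215), and peptide transporter 2 (LOC_Os06g49230.1) was lower by -3.34 ± 0.27. In none of these genes did the groups overlap. With 1 library left out at a time, the lower aquaporins were 5 or 6 and the lower nitrate, ammonium and peptide transporters 9 or 10.

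Of 11 nodulin MtN21 and early nodulin-like proteins 8 were lower and 1 higher. The MtN21-like transporter LOC_Os06g01660.1 was lower by -3.62 ± 0.49. The plastocyanin-like gene LOC_Os08g37660.1, described as an early nodulin-like protein, was the higher one, with 34.7, 31.5 and 57.4 CPM in 2,4-D roots and 3.43, 4.45 and 3.77 CPM in mock roots (3.40 ± 0.30, n = 3 each, edgeR adjusted p = 0.00261). The 8 lower members became 3 when mock replicate 1 or 2,4-D replicate 2 was left out, and 4 for mock replicate 2 or 2,4-D replicate 1.

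Of 42 genes on 3 lists of calcium, receptor kinase and phytosulfokine signalling 23 were higher, 2 lower and 17 not called in 2,4-D roots (median log2 fold change 1.48). Of 16 proteins with EF-hands or that bind calmodulin 12 rose and 1 fell (median 2.21). The 12 became 7 of 16 when mock replicate 2 was left out, 7 of 14 for 2,4-D replicate 1 and 6 of 14 for 2,4-D replicate 2. The calmodulin-binding protein LOC_Os11g44340.1 had 59.7, 66.2 and 41.5 CPM in 2,4-D roots and 4.42, 1.63 and 2.44 CPM in mock roots (4.29 ± 0.42, n = 3 each, edgeR adjusted p = 0.00301). A further member, LOC_Os08g27170.1, rose by 3.65 ± 0.38. The EF-hand protein LOC_Os03g59770.1 had 19.9, 29.3 and 9.31 CPM in 2,4-D roots and 0.992, 0.297 and 1.44 CPM in mock roots (4.46 ± 0.67), and was not tested without 2,4-D replicate 1 or 2. The groups of these genes did not overlap. Of 22 cysteine-rich and wall-associated receptor kinases 8 were higher, 1 lower and 13 not called, with 14 higher without mock replicate 3 and 4 without replicate 1 or 2 of either group. LOC_Os07g35280.1, described as cysteine-rich, had 34.4, 36.7 and 25.1 CPM in 2,4-D roots and 4.88, 3.71 and 6.77 CPM in mock roots (2.65 ± 0.29). Without single libraries the 23 higher signalling genes were 12 to 14 when replicate 1 or 2 of either group was left out, 21 without 2,4-D replicate 3 and 30 without mock replicate 3.

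Defence genes went both ways. Over the 134 tested genes of defence and detoxification 34 were higher and 34 lower (median log2 fold change 0.00233). The shares over all tested transcripts of the study's tables were 21.3% higher and 32.3% lower. Of 15 chitinases and thaumatin-like proteins 7 were higher and 2 lower (median 1.72). Chitinase A LOC_Os01g47070.1, which cleaves chitin of fungal walls, had 282, 347 and 222 CPM in 2,4-D roots and 25.6, 25.2 and 42 CPM in mock roots (3.20 ± 0.29, n = 3 each, edgeR adjusted p = 0.00273). Chitinase A LOC_Os11g47600.1 rose by 3.43 ± 0.29. Of 44 NB-ARC resistance proteins 8 were higher, 4 lower and 32 not called. LOC_Os09g34160.1 had 76.1, 63.6 and 29.1 CPM in 2,4-D roots and 6.87, 4.75 and 6.99 CPM in mock roots (3.19 ± 0.41), while LOC_Os11g46080.1 was lower by -3.22 ± 0.38.

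In some defence-type genes mock replicate 3 lay above the other mock libraries and toward 2,4-D roots. WRKY 70 (LOC_Os03g21710.1), an Arabidopsis regulator of salicylate and jasmonate defence, had 38.4, 39.5 and 10.8 CPM in 2,4-D roots and 1.45, 0.89 and 5.88 CPM in mock roots (3.48 ± 0.85, edgeR adjusted p = 0.0388). Pleiotropic drug resistance 12 (LOC_Os01g24010.1), a membrane exporter, had 185, 219 and 244 CPM in 2,4-D roots and 12, 8.83 and 54.3 CPM in mock roots (3.12 ± 0.73, adjusted p = 0.034). Neither gene overlapped between groups. The WRKY call was lost without replicate 1 or 2 of either group (adjusted p 0.105 to 0.133), and the exporter call when any library but mock replicate 3 was left out (0.0598 to 0.106). Without mock replicate 3 the higher NB-ARC proteins were 17, and they were 2 or 3 without replicate 1 or 2 of either group. Over the 134 genes of defence and detoxification the 34 higher became 49 without mock replicate 3 and 15 without mock replicate 1 or 2. Leaving out 2,4-D replicate 1 gave 18 and 2,4-D replicate 2 gave 19, and the 34 lower were 21 without mock replicate 1.

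Families with members that detoxify foreign compounds went both ways. Of 8 glutathione S-transferases 6 were lower and 1 higher (median -2.03). Glutathione S-transferase TAU 18 LOC_Os10g38580.1 had 23.5, 18.6 and 19 CPM in 2,4-D roots and 137, 133 and 107 CPM in mock roots (-2.63 ± 0.17, n = 3 each, edgeR adjusted p = 0.002). Of 21 UDP-glycosyltransferases 5 were higher and 10 lower. UDP-glucosyl transferase 74D1 (LOC_Os04g12669.1), named after an Arabidopsis enzyme that glucosylates auxin, had 10.7, 17.2 and 22.2 CPM in 2,4-D roots and 1.14, 0.297 and 0.222 CPM in mock roots (4.83 ± 0.64). UDP-glucosyl transferase 85A2 (LOC_Os02g36810.1) rose by 4.49 ± 0.31, and 72B3 (LOC_Os01g43280.1) was lower by -4.23 ± 0.25. All 3 were separated between the groups in every library. Of 27 cytochrome P450 enzymes 6 were higher and 8 lower. The 10 lower UDP-glycosyltransferases became 5 or 6, and the 6 higher P450 enzymes 1 to 4, without replicate 1 or 2 of either group. Without 2,4-D replicate 3 the higher P450 enzymes were 3. Of 19 MATE, PDR and MRP efflux carriers 7 were higher and 4 lower, with 1 higher when mock replicate 1 or 2 was left out and 2 and 3 for 2,4-D replicates 1 and 2. The 4 lower became 1 for mock replicate 1 or 2,4-D replicate 2, and 2 for 2,4-D replicate 1.

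**Figure D4:**
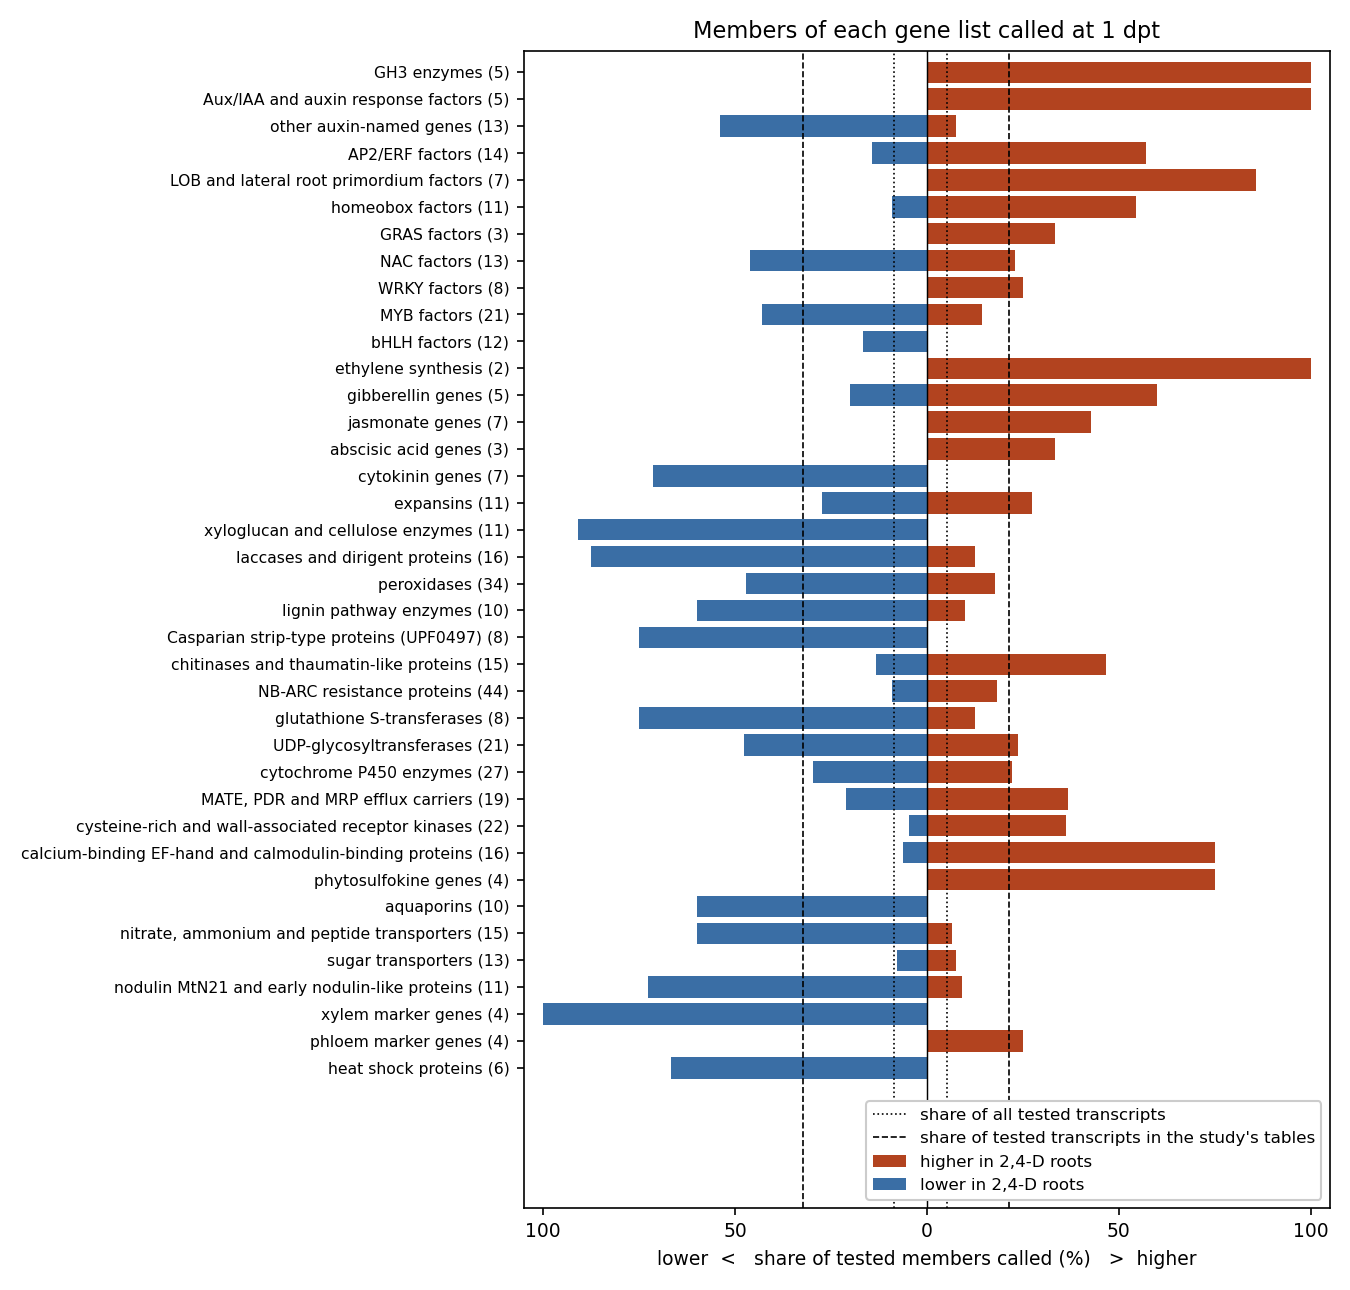
Share of the tested members of each gene list that was called higher (red, to the right) or lower (blue, to the left) in 2,4-D roots at 1 dpt, in percent, with the number of tested members in brackets. Dotted lines mark the shares over all 13477 tested transcripts (5.25% higher, 8.66% lower), dashed lines those over the 1720 tested transcripts of the study's tables (21.3% and 32.3%). Auxin response, LOB-domain and calcium lists reach far to the right, cellulose, laccase and xylem lists far to the left.

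The genes with the largest falls at 1 dpt are of several kinds. The GDSL-like lipase LOC_Os01g11730.1 had 0.514, 0.624 and 0.854 CPM in 2,4-D roots and 113, 134 and 84.3 CPM in mock roots, a log2 fold change of -7.37 ± 0.30 (n = 3 each, edgeR adjusted p = 0.00113). It was the most lowered named transcript, and its level in 2,4-D roots was a few counts above the floor. The glycosyl hydrolase family 10 protein LOC_Os03g10440.1, of a family with xylan-cleaving enzymes, had 3.6, 3.12 and 1.11 CPM in 2,4-D roots and 191, 140.5 and 64.2 CPM in mock roots (-5.65 ± 0.62). Sulfotransferase 4A (LOC_Os11g30910.1) had 0.881, 0.234 and 3.33 CPM in 2,4-D roots and 66.8, 98.2 and 53.1 CPM in mock roots (-5.64 ± 0.80). The groups lay far apart in all 3 genes. The BURP domain protein LOC_Os06g19800.1 (-4.84 ± 0.91) had 13.4 CPM in mock replicate 3 and 161 and 85.3 CPM in mock replicates 1 and 2. Its call was lost without mock replicate 2, 2,4-D replicate 1 or 2,4-D replicate 2 (adjusted p 0.0546, 0.0744 and 0.0696).

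Of the 14 genes examined by RT-PCR in the study, 9 passed the filter on low counts and 8 of these were higher at 1 dpt. They were chosen by the study, partly on 7 dpt values. Besides those given above, a gene described as phytosulfokine receptor in the RT-PCR table and as a phytosulfokine precursor in another (LOC_Os12g05260.1) had 88.7, 67.3 and 108 CPM in 2,4-D roots and 28.8, 34.1 and 33.2 CPM in mock roots (1.46 ± 0.20, n = 3 each, edgeR adjusted p = 0.00703). Phytosulfokine is a growth peptide. The receptor-like kinase LOC_Os02g27310.1 was not called, with 17.2, 20.4 and 14.6 CPM in 2,4-D roots and 1.3, 0.668 and 6 CPM in mock roots (2.77 ± 0.77, adjusted p = 0.0555). The dynamin family gene LOC_Os09g39960.1 rose by 1.40 ± 0.35 and lost its call without replicate 1 or 2 of either group (adjusted p 0.0754 to 0.133). The other 5 stayed under the filter of 10 CPM in 2 or more libraries and were not tested. With a filter of 1 CPM all 14 were tested and 11 were called higher, and with no filter 9 were. Among the 5 under the main filter the NAC factor LOC_Os12g03050.1 had 8.15, 9.36 and 7.17 CPM in 2,4-D roots and 3.43, 2.15 and 2.44 CPM in mock roots. The calmodulin-dependent kinase LOC_Os08g42750.1 had 1.69, 1.48 and 1.88 CPM in 2,4-D roots and 2.82, 2.67 and 1.22 CPM in mock roots. In the study's RT-PCR this NAC factor, a wall-associated kinase and the plastocyanin-like gene were seen only at 7 dpt. The calmodulin-dependent kinase and a GRAS factor (LOC_Os11g04570.1) were seen at 14 but not at 1 dpt, and the rest at 1 dpt. For the plastocyanin-like gene, called higher at 1 dpt here, the RT-PCR and the counts thus differ. The NAC factor also had counts in every 1 dpt library, without overlap of the groups.

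The 1 dpt response was set beside the same comparison at 7 and 14 dpt, each with its own 3 2,4-D and 3 mock libraries. At 7 dpt 693 transcripts were higher and 835 lower of 13770 tested (5.03% and 6.06%), and at 14 dpt 427 and 714 of 13642 (3.13% and 5.23%). Of the 707 transcripts higher at 1 dpt 270 were also higher at 7 dpt (38.2% of the 1 dpt list and 39% of the 7 dpt list), and 0 were lower. Either direction together, 11.1% of transcripts were called at 7 dpt and 8.36% at 14 dpt. Of the 1167 lower at 1 dpt 400 were also lower at 7 dpt (34.3% and 47.9%), and 3 were higher. At 14 dpt 120 of the higher (17% and 28.1%) and 408 of the lower transcripts (35% and 57.1%) were called in the same direction, and 2 and 4 in the opposite one. Calls in the same direction at all 3 times numbered 97 higher and 224 lower, and 412 higher and 577 lower transcripts of 1 dpt were called at neither later time. The median log2 fold change of the transcripts higher at 1 dpt was 1.48 at 7 dpt and 0.59 at 14 dpt, among those tested there. For those lower at 1 dpt it was -1.67 at either time.

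A call at one time and not at another does not show a difference, so the difference of the 2,4-D effect was tested itself in a fit of all 18 libraries. The 1 dpt libraries were sequenced apart from those of 7 and 14 dpt, so time and sequencing batch cannot be told apart. Each effect of 2,4-D over mock lies within its batch. The 2,4-D roots of 7 and 14 dpt were only those with NLSs, and this choice cannot be told apart from time either. Between 1 and 7 dpt 11 of 15149 transcripts differed (0.0726%), 5 with the higher effect at 1 dpt (0.033%) and 6 with the lower (0.0396%), while 1754 had an unadjusted p under 0.05. With limma-voom the counts were 0 and 0, and they were 0 and 0 as well without replicate 1 or 2 of either group. They were 6 and 6 when 2,4-D replicate 3 was left out, and 40 and 52 for mock replicate 3. DESeq2 called 167 and 173. Between 1 and 14 dpt 225 transcripts differed (1.49%), 86 with the higher effect at 1 dpt (0.568%) and 139 with the lower (0.918%). The counts were 24 and 19 with limma-voom and 460 and 478 with DESeq2. Here the counts ran from 11 to 21 and from 19 to 42 when replicate 1 or 2 of either group was left out, and were 374 and 357 for mock replicate 3.

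Auxin genes were among those that differed between 1 and 14 dpt. The effect on the efflux carrier LOC_Os01g51780.1 was 3.35 ± 0.69 greater on the log2 scale at 1 dpt than at 14 dpt (edgeR adjusted p = 0.0331). In the units of that fit 2,4-D roots had 103.5, 223 and 146 CPM at 1 dpt and 28.7, 34 and 11.8 CPM at 14 dpt, against mock roots at 1.68, 1.28 and 0.987 CPM at 1 dpt and 3.89, 1.51 and 1.10 CPM at 14 dpt. The gene was thus above mock at both times and less so at the later one. The effect on IAA inducible 31 (LOC_Os06g07040.1) was 2.84 ± 0.62 greater at 1 dpt (edgeR adjusted p = 0.0395). That on the B3 factor LOC_Os05g48870.1, described as ARF 15, was 1.94 ± 0.35 greater (edgeR adjusted p = 0.021). YUCCA 3 (LOC_Os04g03980.1) went the other way, with a difference of -3.13 ± 0.52 (adjusted p = 0.0163). It was lower than mock at 1 dpt, and at 14 dpt averaged 228 ± 38.1 CPM in 2,4-D roots and 67.2 ± 16.8 CPM in mock roots (SD, n = 3 each), where it was called higher. The IAA carboxylmethyltransferase LOC_Os04g56950.1 differed by -2.76 ± 0.50 (adjusted p = 0.021), and averaged 91.8 ± 16.9 CPM in 2,4-D roots and 7.24 ± 3.39 CPM in mock roots at 14 dpt. Without single 1 dpt libraries the efflux carrier and IAA 31 kept this call in 2 of 6 fits, the B3 factor and the methyltransferase in 3 and YUCCA 3 in 5, with adjusted p up to 0.102, 0.116, 0.0738, 0.069 and 0.0524. With limma-voom the efflux carrier (adjusted p = 0.375) and IAA 31 (0.0584) did not pass, while the B3 factor, the methyltransferase and YUCCA 3 did (0.0404, 0.0404 and 0.0272). None of these auxin genes differed by the edgeR test between 1 and 7 dpt (adjusted p 0.0641 to 0.229).

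GH3 LOC_Os05g42150.1 was called higher at all 3 times, with log2 fold changes of 5.57 ± 0.20 at 1 dpt, 4.94 at 7 dpt and 5.77 at 14 dpt, and no difference between 1 dpt and the later times passed (edgeR adjusted p = 0.67 and 0.86). Cellulose synthase A4 (LOC_Os10g32980.1) was at -4.33, -3.57 and -4.85 at 1, 7 and 14 dpt, called at 1 and 14 dpt. The MLO family gene LOC_Os10g39520.1 had 122, 152 and 181 CPM in 2,4-D roots and 17.5, 16.4 and 12.9 CPM in mock roots at 1 dpt. Its log2 fold change was 3.28, 1.31 and 0.13 at 1, 7 and 14 dpt, and its effect at 1 dpt was 3.17 ± 0.40 greater than at 14 dpt (adjusted p = 0.00951), a call kept whichever 1 dpt library was left out. The 1 dpt call of peroxidase LOC_Os04g59260.1 (-1.73 ± 0.44) was lost without replicate 1 or 2 of either group (adjusted p 0.12 to 0.149).

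**Figure D5:**
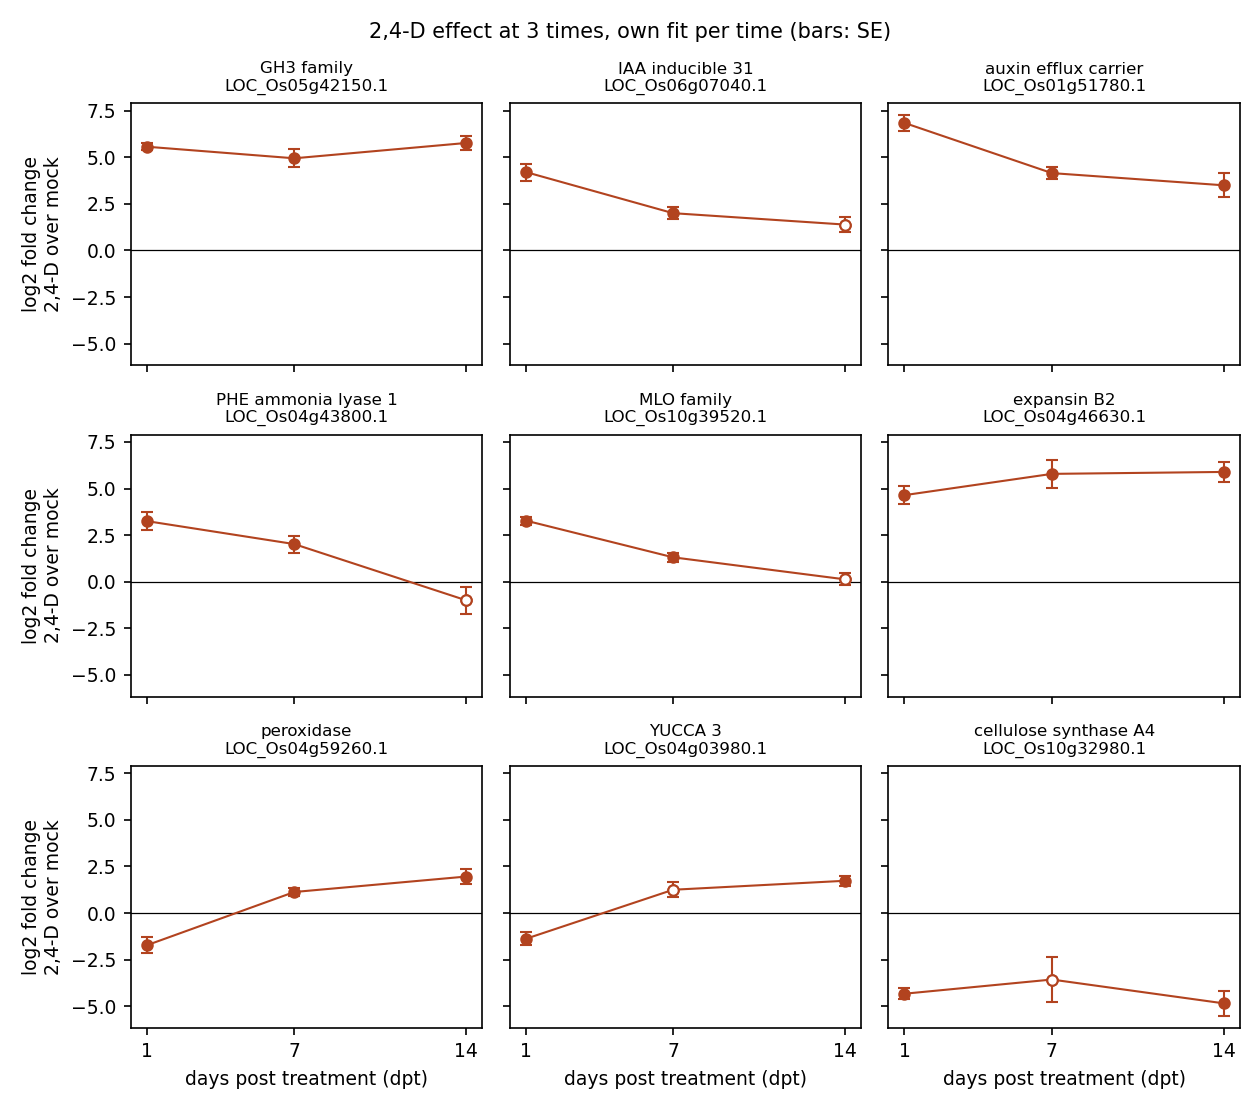
Log2 fold change of 2,4-D over mock roots (y axis, error bars are SE) at 1, 7 and 14 dpt (x axis, days post-treatment), from a separate fit of 3 against 3 libraries at each time, for 9 genes. Filled points were called and open points were not, and the effects on YUCCA 3 and peroxidase LOC_Os04g59260.1 lie below 0 at 1 dpt and above 0 at 7 and 14 dpt, while the GH3 gene stays between 4.94 and 5.77.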

How the data were processed

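RNA of rice roots was sequenced as 100-base read pairs from stranded poly(A) libraries, and the deposited table holds raw counts per transcript, which the authors made by aligning reads to the MSU version 7 rice genome with Rsubread and counting with featureCounts. Its strand setting, and its handling of reads shared by copies or isoforms, were not given in the sources used here. Of 66860 transcripts 26886 had no count at 1 dpt, and 3.18% of the 1 dpt counts fell on isoforms other than the first.

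A transcript was tested where 2 or more of the 6 libraries reached 10 CPM. The fit was made in edgeR 4.0.16 (R 4.3.3) by robust quasi-likelihood with TMM factors, treatment being the only term. Calls needed both a Benjamini-Hochberg adjusted p below 0.05 and a log2 fold change beyond 1 in size. Printed CPM use TMM-scaled totals over tested transcripts and are not per length. SE values are of the log2 fold change, with n = 3 libraries per group. Effects at 1 dpt were set against those at 7 and 14 dpt by interaction contrasts over 18 libraries. The fit was tested on simulated data.

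Alternatives were limma-voom (limma 3.58.1), the test the study used, DESeq2 1.42.0, other scalings and filters, a replicate block, counts per locus and leaving out each library. The deposited table has no column of unknown origin. Lists were made by searching words in the descriptions of the study's tables. The members and lists were chosen with earlier results of these data known. Named genes were the 12 highest and 12 lowest called transcripts with a name, up to 4 called members of each list with the largest change (or the member with the smallest p where none was called), all auxin and hormone genes of the tables, the 14 RT-PCR genes, 5 per direction for each interaction, and 2 unnamed transcripts per direction, not all of them printed. Primer sequences are those of the study.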

Additional observations from a re-analysis of the deposited data

Results flagged for a closer look

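The difference of the 2,4-D effect between 1 dpt and a later time passed the edgeR interaction test (Benjamini-Hochberg) for the transcripts given here, the named ones with the largest difference. Time, sequencing batch and the choice of 2,4-D roots with NLSs at the later times cannot be told apart in any of them.

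Factors of the AP2 family had the largest differences toward the later stage. BABY BOOM (LOC_Os04g42570.1), a factor that promotes embryo formation in other plants, had 3.58, 2.63 and 3.96 CPM in 2,4-D roots and 9.04, 14.3 and 4.72 CPM in mock roots at 1 dpt. At 14 dpt it had 33.7, 19.6 and 31.5 CPM in 2,4-D roots and 4.56, 2.49 and 5.27 CPM in mock roots. Its effect at 1 dpt minus that at 14 dpt was -4.25 on the log2 scale (adjusted p = 0.0118), called whichever 1 dpt library was left out. The AP2 domain protein LOC_Os05g49010.1 differed by -6.33 (adjusted p = 0.00953), also called whichever library was left out, and the AP2-like factor LOC_Os03g56050.1 by -3.94 (adjusted p = 0.0169), lost without mock replicate 1 (0.0613). With limma-voom BABY BOOM passed (adjusted p = 0.0488), while LOC_Os05g49010.1 (0.0776) and LOC_Os03g56050.1 (0.339) did not. These 3 genes stood at no more than 14.3 CPM in any 1 dpt library, and none was tested in the 1 dpt fit. LOC_Os05g49010.1 was near the floor there, at 0.821, 0.159 and 0.792 CPM in 2,4-D roots and 1.225, 2.94 and 1.54 CPM in mock roots. At 14 dpt its mock roots had 0.15, 0.722 and 0.613 CPM, so the size of its difference rests on few counts.

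The peroxidase LOC_Os04g59260.1 differed by -3.69 between 1 and 14 dpt (adjusted p = 0.0129), with 952.9, 420.3 and 1157 CPM in 2,4-D roots and 251, 189 and 198 CPM in mock roots at 14 dpt, and held whichever 1 dpt library was left out. ABC2 homolog 6 (LOC_Os08g30780.1) differed by -3.31 (adjusted p = 0.015) and was lost without 2,4-D replicate 2 (0.0522). In the other direction the MLO family gene LOC_Os10g39520.1 differed by 3.17 and the reticulon LOC_Os01g04640.1 by 3.48 (adjusted p = 0.00953), both called whichever 1 dpt library was left out. PHE ammonia lyase 1 LOC_Os04g43800.1 differed by 4.27 (adjusted p = 0.0358) and the auxin efflux carrier LOC_Os01g51780.1 by 3.35 (adjusted p = 0.0331), each lost without replicate 1 or 2 of either group. With limma-voom peroxidase LOC_Os04g59260.1, ABC2 homolog 6 and the MLO gene passed (adjusted p 0.0191, 0.0477 and 0.0118), while the reticulon, PHE ammonia lyase 1 and the efflux carrier did not (0.0712, 0.0947 and 0.375).

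The subtilase LOC_Os02g17150.1 differed by 4.57 between 1 and 14 dpt (adjusted p = 0.0187), lost without mock replicate 1 or 2 and with limma-voom (0.0672), and by 6.03 between 1 and 7 dpt (adjusted p = 0.0278). At 7 dpt it had 0.314, 0.411 and 0.59 CPM in 2,4-D roots and 11.5, 17 and 18 CPM in mock roots. Between 1 and 7 dpt the DUF827 protein LOC_Os05g39840.1 also differed, by -2.34, the MtN21-like transporter LOC_Os07g34110.1 by 2.74 and peroxidase LOC_Os12g26290.5 by 2.68 (adjusted p = 0.034 each). These 4 differences between 1 and 7 dpt were lost without replicate 1 or 2 of either group, that of the transporter also without 2,4-D replicate 3. With limma-voom none of the 4 passed (adjusted p 0.0715 to 0.173).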

How the results depend on the processing

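Other filters raised the 1 dpt counts from 707 higher and 1167 lower to 1195 and 1961 at 1 CPM, 1182 and 1928 with filterByExpr and 1333 and 2111 with no filter, since more transcripts were tested. Without single libraries they ran from 372 to 1207 and from 571 to 1398. Counts stayed within 1.5 times of these with limma-voom, DESeq2, other scalings, 18 libraries in 1 fit, no fold threshold and counts per locus, and limma-voom also called 612 of the higher and 1040 of the lower transcripts. The 463 tested members of the lists, 122 higher and 155 lower, ran from 74 to 154 and from 94 to 158 without single libraries.

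For the difference between 1 and 7 dpt (5 and 6) the counts were 0 and 0 with limma-voom, 167 and 173 with DESeq2, 3 higher on library sizes alone, 12 lower at 1 CPM, and 0 to 40 and 0 to 52 without single libraries. For 1 minus 14 dpt (86 and 139) they were 24 and 19 with limma-voom, 460 and 478 with DESeq2, and 11 to 374 and 19 to 357 without single libraries. The cause of these shifts was not tested.

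Same-numbered libraries of the groups did not deviate together (correlations of deviations -0.255, -0.616 and -0.557). With 3 libraries per group, and the third library apart in each, these correlations cannot show whether the numbers pair the libraries. With the number as a replicate block 217 and 321 transcripts were called at 1 dpt, 56 and 62 list members, 0 and 0 for 1 minus 7 dpt and 3 and 1 for 1 minus 14 dpt. In these deviations no library correlated best with its own number.

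Values of 3 uncalled genes changed sign. Without single libraries LOC_Os01g55240.1 ran from -0.0157 (2,4-D replicate 3) to 0.583 and LOC_Os07g34110.1 from -0.114 (mock replicate 2) to 0.247. LOC_Os09g32770.1 was at 0.055 and 0.137 with limma-voom (TMM, library sizes), 0.0389 with edgeR on library sizes, 0.0207 with the block, 0.0339 and 0.119 without 2,4-D replicates 2 and 3, and from -0.254 to 0.374 (mock replicate 3) over all single libraries left out. No called value changed sign among the 165 named transcripts tested, and 101 of the 153 called kept their call whichever library was left out. Depth limits genes near the floor of 3 counts, where small differences were not detectable.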

Other observations

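Wider groups of the study's tables also moved unevenly at 1 dpt, and as all of these were drawn at 7 dpt their shares are not independent evidence. Of 173 protein kinases tested 51 were higher and 29 lower in 2,4-D roots (median log2 fold change 0.75). The 51 became 76 without mock replicate 3 and 30 to 33 without replicate 1 or 2 of either group, and the 29 became 17 without mock replicate 1 and 19 without 2,4-D replicate 1. Of 169 transporters 23 were higher and 63 lower (median -0.95). The 23 became 10 or 11 without mock replicate 1 or 2 or 2,4-D replicate 1, and 15 without 2,4-D replicate 2. Heat shock proteins, chaperones of unfolded proteins, were lower in 4 of 6 members tested and higher in none, with 2 lower without replicate 1 or 2 of either group. Among 13 sugar transporters 1 was higher and 1 lower. Called transcripts lay on all 12 chromosomes, from 11.3% of those tested on chromosome 12 to 17.9% on chromosome 10.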
